A study of Homo sapiens with 12 samples.

Results

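The genes described here are 10 that handle iron and heme: HMOX1, FTH1, FTL, TFRC, TF, SLC40A1, SLC11A2, HAMP, BLVRB and NCOA4. They were chosen by name among the 57736 genes of the count tables, for their known function, with earlier results of these data known. Their transcripts were followed in 2 human cancer cell lines, HepG2 from a liver carcinoma and Ls174 from a colon carcinoma, after 24 h without treatment or with HME, an extract of the red seaweed Hypnea musciformis. The labels give HME as 0.7 mg/ml, named there as the IC50, while the methods of the study give a slightly higher concentration. All cells were of the genotype labelled WT and were kept in DMEM with fetal bovine serum. The study's assays of growth inhibition, apoptosis and membrane potential used medium without serum, and whether the cells for RNA had serum during the 24 h is not given in the sources used here. Each of the 4 groups (HepG2 control, HepG2 HME, Ls174 control, Ls174 HME) held 3 libraries of biological replicates. The IC50 refers to inhibition of cell growth, and each library holds the RNA of a whole culture, in which the number and state of the cells were not measured here. Fewer cells with a transcript and less of it per cell therefore cannot be told apart.

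The libraries held between 1790841 and 3656662 counts over 13885 to 19354 genes, so that 3 counts, taken here as the floor of the measurement, correspond to 0.764 to 1.85 CPM (counts scaled to an equal library total, after TMM normalisation). These floors cover counting error only. The hepatocyte markers ALB, AFP, APOA1, APOB, TTR, SERPINA1, FGB and AHSG summed to between 15168 and 26319 CPM in the HepG2 libraries and to between 0.309 and 131 CPM in the Ls174 libraries. The 8 colon epithelium markers summed to 265 to 386 CPM in Ls174 and to 69.2 to 216 CPM in HepG2. In the Ls174 controls KRT20 was at 0, and MUC2 and CEACAM5 averaged only 1.14 and 2.90 CPM. CDX1 and CDX2 averaged 141 and 72.1 CPM there, against 0.268 and 0.992 CPM in the HepG2 controls. Markers of endothelial cells stayed at or below 4.33 CPM, and those of blood cells lay between 116 and 559 CPM in HepG2 and at or below 4.84 CPM in Ls174. Of the mesenchymal markers, HepG2 HME 2 held 952 CPM, against at most 11.9 CPM in every other library. This sum came from COL1A1 and COL1A2, which reached 546 and 404 CPM. In the HepG2 HME group COL3A1, LUM and PDGFRB stayed at or below 3.58 CPM, and DCN was at 0. HepG2 control 2 and Ls174 control 1 lay apart from the other controls of their line, and results below are given without these 3 libraries where that changed them.

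Cells take up iron as transferrin (TF) bound to the transferrin receptor (TFRC), and move it from endosomes into the cytosol through DMT1, the product of SLC11A2. Iron that is not used is stored in ferritin, a shell of heavy (FTH1) and light (FTL) chains, from which the cargo receptor NCOA4 recruits it for release in lysosomes. Ferroportin (SLC40A1) exports iron from the cell, and the liver hormone hepcidin (HAMP) removes ferroportin from the cell surface. Heme is opened by heme oxygenase 1 (HMOX1), which frees its iron, and biliverdin reductase B (BLVRB) acts on its linear breakdown products. Iron regulatory proteins bind a hairpin, the iron-responsive element, in several of these messengers. In a 5′ UTR this binding blocks translation when iron is short, without a need for a change of RNA level, whereas in the 3′ UTR of TFRC it protects the RNA from decay, so that the transcript falls when iron is plentiful.

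This difference matters for counts of RNA, and the elements of the members are therefore shown, from the GRCh37 sequence and the GENCODE annotation lifted to it, 5′ to 3′ on the transcript strand with the 6-base loop in capitals. The search used the letters CNNNNNCAGTGN on the transcript strand, with no G as the last letter, with all 5 base pairs of the upper stem and at least 4 of 6 of the lower stem. The 5′ UTR elements, which the 3′ libraries do not reach, lie at chr11:61735046-61735074 (FTH1), chr19:49468592-49468620 (FTL) and chr2:190445387-190445415 (SLC40A1). In the 3′ UTR of TFRC the search matched 4 elements, at chr3:195777850-195777878, chr3:195777446-195777474, chr3:195777381-195777409 and chr3:195777334-195777362. In that of SLC11A2 it matched 1 with an unpaired base in the upper stem, at chr12:51382051-51382080. Elements that depart from these letters or pairings would be missed, so the numbers are of matches only.
FTH1: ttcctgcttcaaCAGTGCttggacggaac
FTL: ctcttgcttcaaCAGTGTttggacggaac
SLC40A1: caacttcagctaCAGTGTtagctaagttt
TFRC element a: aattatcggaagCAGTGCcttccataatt
TFRC element b: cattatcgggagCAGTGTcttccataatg
TFRC element c: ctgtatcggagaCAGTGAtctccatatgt
TFRC element d: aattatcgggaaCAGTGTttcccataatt
SLC11A2: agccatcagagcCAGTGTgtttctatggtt

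Among 19798 protein-coding genes searched, 25 (0.1263%) held an element in a UTR with a fully paired upper stem, 4 of them members, and 81 (0.4091%) when 1 unpaired base was allowed, 5 of them members. A match describes letters and pairing, not binding of a protein. The 4 matched elements of TFRC and the 1 of SLC11A2 lie inside the 3′ regions in which their reads were counted (chr3:195775958-195779055 and chr12:51379578-51382107, both on the minus strand).

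In HepG2 cells, HME raised the transcripts of heme oxygenase 1 and of ferroportin, the enzyme that frees iron from heme and the exporter of iron. All 10 genes passed the filter on low counts there. HMOX1 and SLC40A1 passed an adjusted p under 0.05 and no member was lower at that threshold, while 3.31% of all 11343 tested genes passed it, 2.77% as higher and 0.538% as lower. At the thresholds of the study's methods (p under 0.05 before adjustment, and 0.58 or more on the log2 scale in either direction), FTL joined them on the higher side, which gave 3 members higher and 0 lower, against 11.3% and 10.9% of all genes. The median log2 fold change of the 10 was 0.63, against -0.04 over all tested genes, with 7 members higher and 3 lower.

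HMOX1 was counted at chr22:35789592-35790404, in the last exon's 3′ UTR. It stood at 100.1, 58.1 and 86.4 CPM in HepG2 control 1, 2 and 3 and at 455, 822 and 854 CPM in HME 1, 2 and 3 (375, 94 and 215 counts, and 1157, 2349 and 1430 counts). Every HME library lay above every control, and the lowest HME value belonged to replicate 1. The means were 81.5 ± 21.4 and 711 ± 222 CPM (SD, n = 3), an 8.71-fold difference, and the log2 fold change was 3.14 ± 0.39 (SE; 95% interval 2.28 to 4.004; adjusted p = 0.00288, edgeR's quasi-likelihood test with Benjamini-Hochberg adjustment). HMOX1 kept an adjusted p under 0.05 in each of the 17 alternatives run for it, at most 0.0226 in edgeR without control 3. Without HME 2, the library with high COL1A1 and COL1A2, its log2 fold change was 3.04 (adjusted p = 0.0139, edgeR).

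SLC40A1, counted at chr2:190425108-190426603 in the 3′ UTR, is ferroportin, the known iron exporter of vertebrate cells. Its values were 12.6, 4.33 and 9.64 CPM in the controls and 40.9, 46.6 and 65.1 CPM with HME, from 47, 7 and 24 counts and 104, 133 and 109 counts. The groups did not overlap, and the lowest HME library was 3 times or more above each control, with control 2 lowest of all at 7 counts. The mean went from 8.84 ± 4.17 to 50.9 ± 12.6 CPM (SD, n = 3). On the log2 scale the rise was 2.49 ± 0.41 (SE), with an adjusted p of 0.0118 (edgeR). Without control 3 the adjusted p was 0.05001 and without HME 3 it was 0.0719 (edgeR), with log2 fold changes of 2.53 and 2.30, so the call depended on these libraries while the size moved little; without HME 2 the adjusted p was 0.0425 (edgeR).

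**Figure D1:**
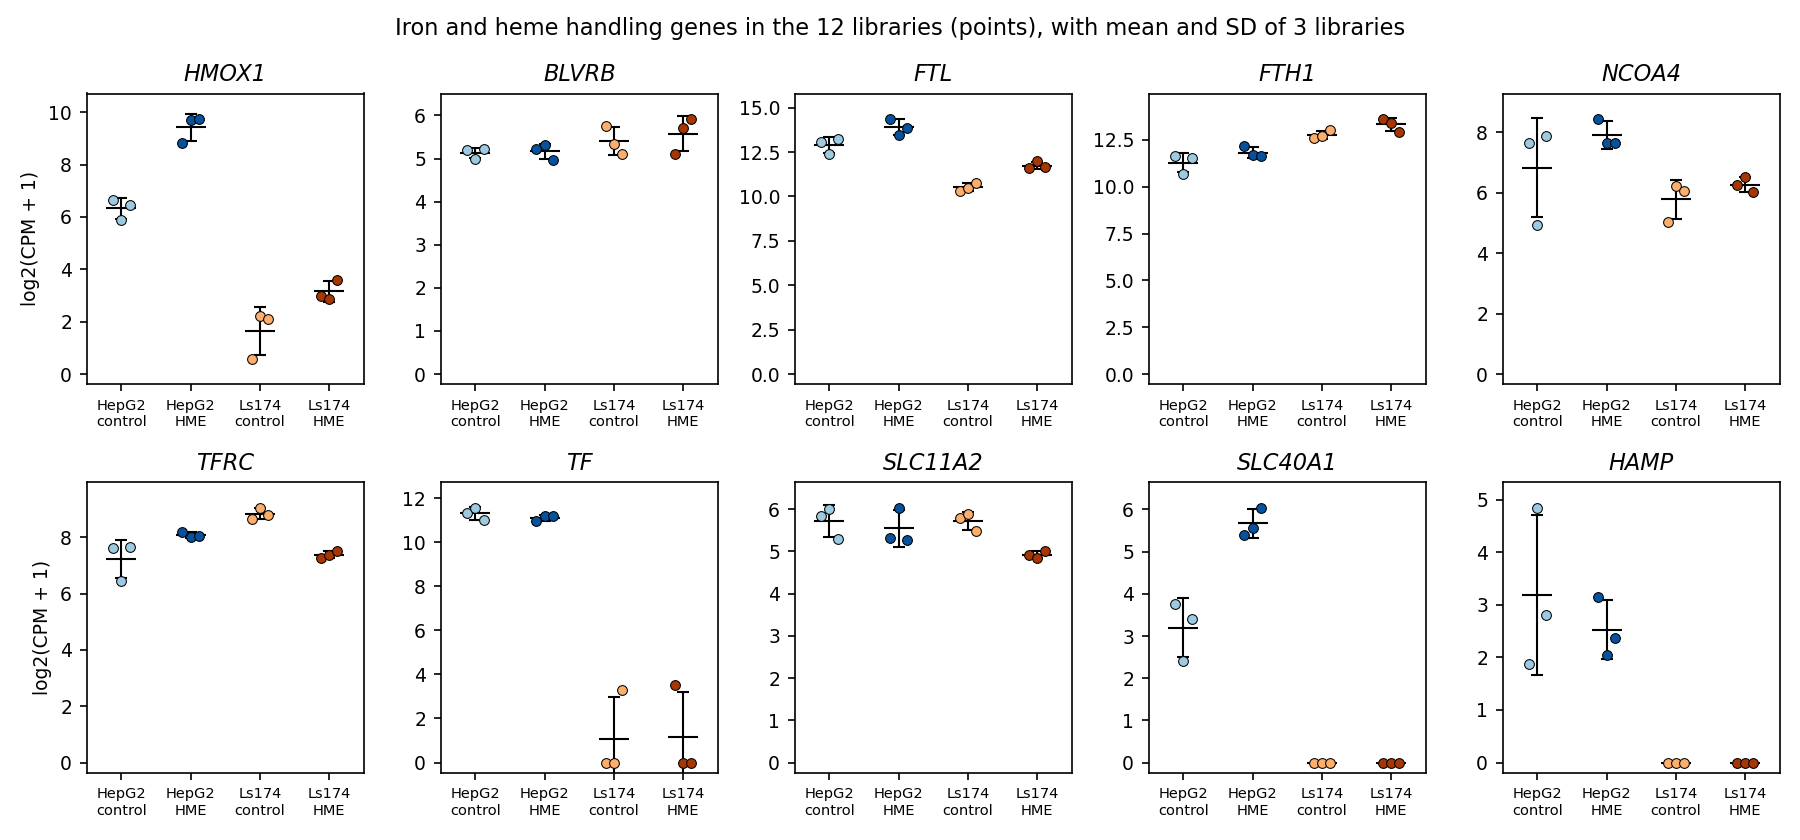
Expression of the 10 iron and heme handling genes, as log2(CPM + 1) on the vertical axis, in the 12 libraries (points) grouped by cell line and treatment, with bars for the mean and SD of 3 libraries. HMOX1 and SLC40A1 separate fully between HepG2 control and HME, TFRC separates in opposite directions in the 2 lines, and SLC40A1 and HAMP lie at 0 in all Ls174 libraries.

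The ferritin chains are the iron store. FTL, counted at chr19:49469993-49470332 in its 3′ UTR, stood at 8742, 5280 and 9577 CPM in the HepG2 controls and at 21044, 11493 and 14598 CPM with HME. The groups did not overlap, and the log2 fold change was 1.02 ± 0.39 (SE), which passed the study's thresholds and not the adjusted one (adjusted p = 0.174, edgeR). FTH1, counted at chr11:61731560-61732584 over coding sequence and 3′ UTR, was at 3179, 1660 and 2921 CPM without and 4600, 3272 and 3161 CPM with HME. Its groups overlapped, since HME 3 lay below control 1, and the difference of 0.53 ± 0.36 (SE, log2) had an adjusted p of 0.408 (edgeR). NCOA4, which hands ferritin to the lysosome, ranged from 29.7 CPM in control 2 to 233 CPM in control 3 and from 196 to 345 CPM with HME, so that its spread among controls exceeded the difference of the means (log2 fold change 0.72 ± 0.60, SE; adjusted p = 0.508, edgeR). Control 2 was the lowest HepG2 library for FTL, FTH1, NCOA4, TFRC, HMOX1 and SLC40A1 alike; without it the log2 fold changes of FTL, FTH1 and NCOA4 were 0.85, 0.34 and 0.26.

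Ferritin reads are hard to place, because the genome holds many processed pseudogenes of both chains. Reads listed under 25 FTH1 pseudogenes made up 34.7% to 69.0% of the FTH1 family's counts across libraries, and those under FTL pseudogenes 5.62% to 29.7% of the FTL family's, each with the highest share in HepG2 control 2. How the authors treated reads with several alignments is not given in the sources used here. Summing each chain with its pseudogenes gave log2 fold changes of 0.89 for FTL and 0.41 for FTH1 in HepG2, both still short of the threshold. The counted FTH1 region also overlaps an exon of BEST1 on the opposite strand, and whether counting used strand is not stated. FTMT, the mitochondrial ferritin, was at 0 in all 12 libraries.

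The uptake and hormone genes of HepG2 cells passed no threshold. TFRC, the receptor for transferrin, was at 196, 87.2 and 198 CPM in the controls and at 291, 256 and 264 CPM with HME, without overlap, and its log2 fold change of 0.78 ± 0.35 (SE) had an adjusted p of 0.231 (edgeR). With 1 library left out, this log2 fold change lay between 0.52 and 0.95. TFRC was 1 of 4 members whose groups did not overlap in HepG2, with HMOX1, SLC40A1 and FTL, where 30.8% of all tested genes had such groups. TF, the plasma carrier of iron made by hepatocytes, stood at 2591, 3042 and 2053 CPM and then at 1963, 2333 and 2337 CPM (log2 fold change -0.21 ± 0.33, SE; adjusted p = 0.732, edgeR). The log2 fold change of TF lay between -0.36 and -0.0013 with 1 library left out. SLC11A2, the endosomal iron transporter, was at 56.6, 63.1 and 38.2 CPM without and at 39.0, 64.8 and 37.6 CPM with HME (log2 fold change -0.15 ± 0.36, SE; adjusted p = 0.826, edgeR). BLVRB, the reductase of heme breakdown, kept the narrowest range, between 30.5 and 38.9 CPM over the 6 libraries, with a log2 fold change of 0.06 and a 95% interval from -0.58 to 0.69 (adjusted p = 0.927, edgeR).

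HAMP encodes hepcidin and was close to the floor. Its counts were 10, 45 and 15 in the HepG2 controls and 20, 9 and 7 with HME (2.67, 27.8 and 6.03 CPM, and 7.87, 3.15 and 4.18 CPM). Control 2 alone stood high, control 3 lay within the range of the HME libraries and control 1 below it in CPM. The log2 fold change was -1.20 ± 0.83 (SE; adjusted p = 0.420, edgeR) and turned to 0.34 without control 2, so no direction can be read for this gene.

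In Ls174 cells, HME raised the transcript of the ferritin light chain and lowered that of the transferrin receptor. Of the 10 members, 7 passed the filter on low counts, and TF, SLC40A1 and HAMP did not. FTL passed the adjusted threshold as higher and TFRC as lower, where 1.18% of all 11319 tested genes passed, 0.318% as higher and 0.866% as lower. At the thresholds of the study's methods, HMOX1 was added on the higher side and SLC11A2 on the lower side, against 4.11% and 7.85% of all genes, and the same 4 genes had groups that did not overlap, against 23.8%. The median log2 fold change of the 7 was 0.41, against -0.003 over all tested genes.

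TFRC, counted over coding sequence and the 3′ UTR that carries the 4 hairpins above, stood at 402, 530 and 446 CPM in the Ls174 controls and at 153, 162 and 180 CPM with HME (821, 1718 and 1751 counts, and 423, 459 and 552 counts). No library of one group came near the other, and the HME libraries differed among themselves by less than the controls did. The mean fell from 459 ± 65.5 to 165 ± 13.8 CPM (SD, n = 3), 2.78-fold lower, and the log2 fold change was -1.48 ± 0.20 (SE; 95% interval -1.93 to -1.03; adjusted p = 0.0255, edgeR). Leaving out 1 library kept the size between -1.56 and -1.36, but the adjusted p rose to 0.105 without control 2, 0.0592 without control 3, 0.159 without HME 1, 0.269 without HME 2 and 0.223 without HME 3 (edgeR). Without control 1, the library that lay apart, it was 2.46e-05 (edgeR).

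FTL stood at 1287, 1419 and 1734 CPM in the Ls174 controls and at 3091, 4011 and 3222 CPM with HME. The groups did not overlap, and the mean rose from 1480 ± 229 to 3442 ± 498 CPM (SD, n = 3), by 1.21 ± 0.23 on the log2 scale (SE), with an adjusted p of 0.0487 (edgeR). The adjusted p lay close to the threshold and exceeded it in several alternatives: 0.0509 with pseudogenes summed, 0.0655 with scaling by library size, 0.212 and 0.114 without control 2 or 3, and 0.165, 0.303 and 0.258 without HME 1, 2 or 3 (edgeR). The log2 fold change stayed between 1.09 and 1.34 over the libraries left out. FTH1, at 6240, 6654 and 8229 CPM without and 12574, 10897 and 7886 CPM with HME, overlapped in 1 library of each group (log2 fold change 0.56 ± 0.27, SE; adjusted p = 0.396, edgeR).

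HMOX1 was rare in Ls174 cells. Its counts were 1, 12 and 13 in the controls and 19, 18 and 34 with HME, or 0.489, 3.71 and 3.31 CPM and 6.89, 6.37 and 11.1 CPM. The groups did not overlap, but the log2 fold change of 1.60 ± 0.61 (SE) did not pass after adjustment (adjusted p = 0.308, edgeR), and control 1 alone lay under the floor of 3 counts. Without control 1 the log2 fold change was 1.22 (adjusted p = 0.0921, edgeR).

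SLC11A2 stood at 54.8, 58.05 and 43.8 CPM in the Ls174 controls and at 29.4, 27.6 and 31.4 CPM with HME. The HME libraries lay below every control and within 4 CPM of each other. Its log2 fold change was -0.83 ± 0.21 (SE; adjusted p = 0.125, edgeR); DESeq2 gave an adjusted p of 0.0478, and edgeR without control 1 gave 0.0176. BLVRB ranged from 33.6 to 53.3 CPM without and from 33.7 to 59.5 CPM with HME, and NCOA4 from 31.8 to 74.1 and from 63.7 to 90.9 CPM, each with overlap and with adjusted p of 0.798 and 0.585 (edgeR).

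**Figure D2:**
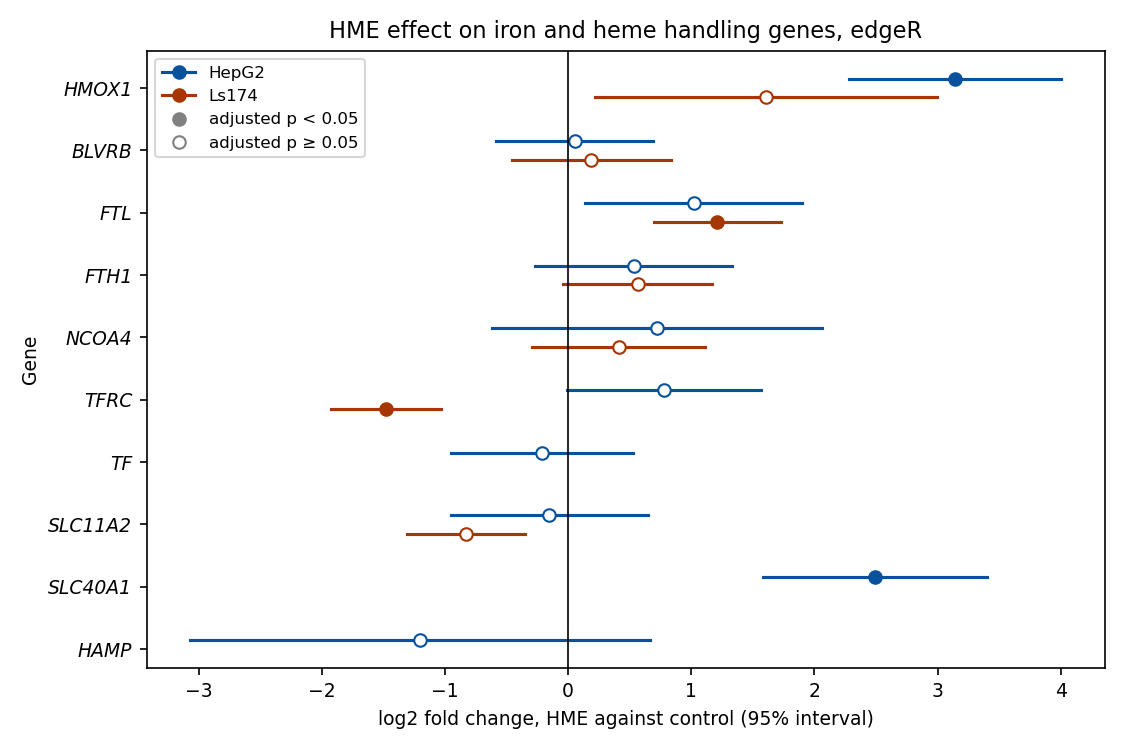
Log2 fold change of HME against control for each gene in HepG2 (blue) and Ls174 (brown), with 95% intervals from edgeR; filled points passed an adjusted p under 0.05. Filled points are HMOX1 (3.14) and SLC40A1 (2.49) in HepG2 and FTL (1.21) and TFRC (-1.48) in Ls174, and the TFRC intervals of the 2 lines do not meet.

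Next, the effect of HME was compared between the lines by the interaction of line and treatment in 1 fit of the 12 libraries. TFRC was the only member of the 8 that could be tested to pass, against 0.644% of all 13040 genes. Its effect in HepG2 exceeded that in Ls174 by 2.22 ± 0.43 (SE, log2; 95% interval 1.30 to 3.14; adjusted p = 0.0311, edgeR), from values that lay higher with HME in the 3 HepG2 libraries and lower in the 3 Ls174 libraries. Without the controls that lay apart (HepG2 control 2 and Ls174 control 1) the difference was 1.99 (adjusted p = 0.00136, edgeR), so it does not rest on them. It stayed between 1.91 and 2.40 when any single library was left out, while the adjusted p lay between 0.0688 and 0.125 without HepG2 HME 1, 2 or 3, without Ls174 control 2 or 3, or without Ls174 HME 1, 2 or 3 (0.0851, 0.0763, 0.0779, 0.0990, 0.0688, 0.110, 0.125 and 0.112, edgeR), and at 0.0818 with scaling by library size.

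For HMOX1 the difference between the effects was 1.54 ± 0.64 (SE, log2; adjusted p = 0.317, edgeR), with a 95% interval from 0.16 to 2.91. FTL and FTH1 differed between the lines by -0.22 and -0.06, with 95% intervals from -1.25 to 0.82 and from -1.09 to 0.97. SLC11A2 differed by 0.67 (interval -0.21 to 1.56), NCOA4 by 0.26 (interval -1.37 to 1.88) and BLVRB by -0.15 (interval -1.02 to 0.71). SLC40A1 and HAMP had no count in Ls174, so no difference of effects exists for them. TF, though tested, had counts in only 2 of the 6 Ls174 libraries, and nothing is read from its test.

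Ratios of 2 genes within a library need no scaling between libraries, and these were added after the values were seen. Counts of FTL per count of FTH1 were 3.07 ± 0.28 in HepG2 control and 4.23 ± 0.63 in HepG2 HME cells, and 0.210 ± 0.0035 and 0.341 ± 0.085 in Ls174 cells (SD, n = 3), without overlap in either line. Counts of FTL per count of TFRC, store against uptake receptor, were 51.2 ± 8.3 and 57.5 ± 13.8 in HepG2, with overlap. In Ls174 the same ratio was 3.26 ± 0.61 in the controls and 20.9 ± 3.5 with HME, and its lowest HME library (17.9) lay far above its highest control (3.89). The FTH1 counts in these ratios carry the uncertainty of the pseudogenes given above.

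**Figure D3:**
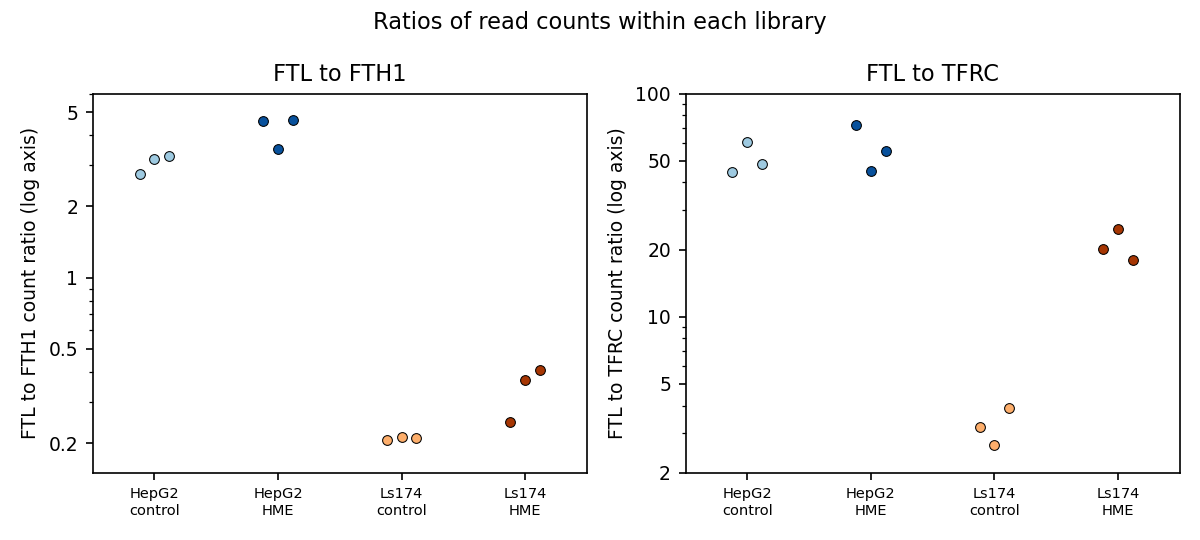
Ratios of read counts within each library on logarithmic axes, FTL to FTH1 (left) and FTL to TFRC (right), for the 4 groups with 3 libraries each (points). The FTL to TFRC ratio lies between 44.7 and 72.4 in all HepG2 libraries and moves from at most 3.89 to at least 17.9 in Ls174.

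The untreated lines differed in most of these genes. Of 8 members tested between the controls, HMOX1, TF and FTL were higher in HepG2 and TFRC and FTH1 lower, 5 in all, where 23.5% of all 11907 tested genes differed, 14.2% as higher and 9.33% as lower. These 5 also had groups that did not overlap, against 42.7% of all genes. TF had 0, 0 and 34 counts in Ls174 control 1, 2 and 3 and passed the filter on low counts through its HepG2 libraries. Its call is therefore given as a description only. The control libraries are shared with the HME comparisons above.

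HMOX1 averaged 81.5 CPM in HepG2 and 2.50 CPM in Ls174 controls (log2 difference 4.95 ± 0.56, SE; adjusted p = 0.000334, edgeR), so that the HME-treated Ls174 cells, at 8.12 ± 2.60 CPM, still lay below the HepG2 controls. TF averaged 2562 ± 495 CPM in HepG2 control cells, whereas in Ls174 only control 3 (34 counts, 8.65 CPM) and HME 1 (29 counts, 10.5 CPM) held any (log2 difference 9.67 ± 1.38, SE; adjusted p = 0.00104, edgeR). These 2 libraries were also the ones with the highest hepatocyte marker sums of their groups, 131 and 66.0 CPM. Whether these counts come from Ls174 cells was not tested.

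The 2 ferritin chains ran in opposite directions between the lines. FTL was 5.32-fold higher in HepG2 control than in Ls174 control cells (log2 difference 2.44 ± 0.43, SE; adjusted p = 0.00279, edgeR), and FTH1 was 2.72-fold lower (2587 ± 813 against 7041 ± 1050 CPM, SD, n = 3; log2 difference -1.42 ± 0.42, SE; adjusted p = 0.0369, edgeR). The FTH1 call was lost when pseudogenes were summed with it (-1.01, adjusted p = 0.0947, edgeR) and without HepG2 control 1 or 3 or Ls174 control 2 or 3 (adjusted p = 0.0722, 0.0904, 0.114 and 0.119, edgeR). TFRC was lower in HepG2 by 1.49 ± 0.39 on the log2 scale (SE; adjusted p = 0.0220, edgeR), which no longer passed without Ls174 control 2 (0.0933) or 3 (0.0590). With HME the order of TFRC turned round, at 270 ± 18.4 CPM in HepG2 and 165 ± 13.8 CPM in Ls174 (SD, n = 3).

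SLC40A1 and HAMP had no count in any of the 6 Ls174 libraries. Against the floor of 3 counts in the Ls174 library where it is highest, SLC40A1 was at least 6.03-fold higher in HepG2 control cells and at least 46.8-fold higher in HepG2 HME cells, and HAMP at least 8.30-fold and 4.66-fold. The bound of HAMP in the controls rests on control 2 and was 2.96-fold without it, and by the lowest control library alone the bounds were 2.95-fold for SLC40A1 and 1.82-fold for HAMP. The exporter was therefore not detectable at this depth in the colon line with or without HME. NCOA4 (154 against 57.2 CPM), BLVRB (34.2 against 42.1 CPM) and SLC11A2 (52.6 against 52.2 CPM) did not pass between the controls, with adjusted p of 0.156, 0.621 and 0.930 (edgeR); without HepG2 control 2, NCOA4 passed with a log2 difference of 1.94 (adjusted p = 0.00781, edgeR).

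SLC11A2 is the member with 2 used 3′ ends, and they differ in the hairpin printed above. The end at chr12:51379578-51382107 carries it and held 84.8% of the gene's counts over all libraries, and the end at chr12:51372987-51375508, without a matching sequence, held 15.2%. The end without the hairpin took 10.1% ± 9.5 of the counts of both ends in HepG2 controls and 10.6% ± 2.8 after HME, and in Ls174 it took 21.7% ± 6.3 and 20.2% ± 2.8 (SD, n = 3). In Ls174, the log2 fold change with HME was -0.79 ± 0.21 at the end with the hairpin (SE; adjusted p = 0.142, edgeR) and -0.94 ± 0.43 at the end without it (SE; adjusted p = 0.389, edgeR). Neither passed, and the share of the ends moved by less than the spread between replicates.

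**Figure D4:**
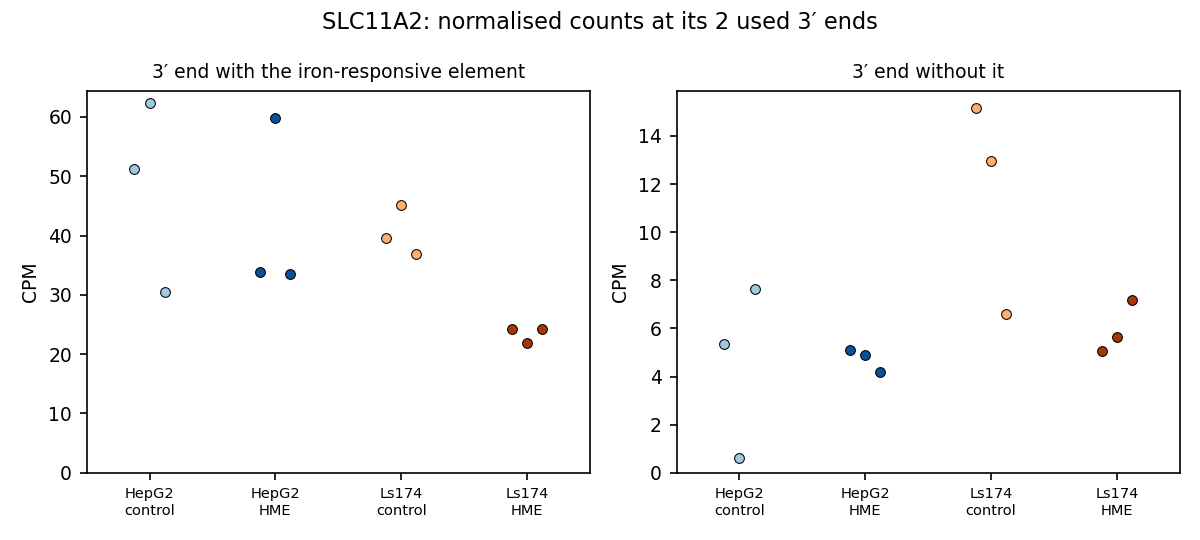
CPM at the 3′ ends of SLC11A2 with (left) and without (right) the iron-responsive element in the 12 libraries (points). In Ls174 the HME libraries lie below the controls at the end with the element, and at the other end they overlap with 1 control.

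The wider pathway was read from lists of 114 genes for uptake, storage, export, the hepcidin pathway, iron sensing, heme breakdown, transport and synthesis, iron-sulfur clusters and transcription regulators, members included. In HepG2, 94 were tested and 5 passed the adjusted threshold, all higher: HMOX1, SLC40A1 and the regulators MAFF, MAFK and BACH1, where 3.31% of all tested genes passed. In Ls174, 83 were tested and 2 passed, FTL and TFRC, where 1.18% of all tested genes did. The lists were drawn up with earlier results of these data known, and nothing is read from these shares. The median log2 fold change of these genes was -0.12 in HepG2 and -0.06 in Ls174, close to that of all tested genes.

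The regulators act on the antioxidant response elements of HMOX1 and of the ferritin genes, where NRF2 (NFE2L2) with a small MAF protein activates and BACH1 with a small MAF protein represses. In HepG2 cells 3 of the 7 listed passed as higher, where 2.77% of all tested genes did, and the list was drawn up with earlier results known. MAFF went from 9.08, 6.80 and 4.82 CPM to 59.0, 60.2 and 82.4 CPM (log2 fold change 3.27 ± 0.37, SE; adjusted p = 0.00220, edgeR), MAFK from a mean of 24.7 to 110 CPM (2.16 ± 0.34, SE; adjusted p = 0.0102, edgeR), and BACH1, a heme-sensing repressor, from 6.9 to 24.6 CPM (1.81 ± 0.38, SE; adjusted p = 0.0340, edgeR). NFE2L2 (1.63), MAFG (1.34) and KEAP1 (1.24), the adaptor that keeps NRF2 low, had adjusted p of 0.0908, 0.0872 and 0.0549 (edgeR). CUL3, the ligase scaffold that works with KEAP1, was at -1.15 (adjusted p = 0.0970, edgeR). In Ls174 none of the 7 passed, with log2 fold changes from -0.58 to 0.91 and adjusted p of at least 0.379 (edgeR), and 0 of the 7 had an unadjusted p under 0.05 in that test. The difference between the lines passed for MAFK (2.35 ± 0.41, SE; adjusted p = 0.0174, edgeR), while those of MAFF and NFE2L2 were 2.35 and 1.25 with adjusted p of 0.0547 and 0.491 (edgeR). These are levels of RNA, and the activity of NRF2 and BACH1 is set largely on the protein. In HepG2 control 1, 2 and 3, NFE2L2 was at 43.3, 9.89 and 19.7 CPM and CUL3 at 56.9, 66.8 and 36.6 CPM. Fold changes of the regulators with a library left out are not given.

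**Figure D5:**
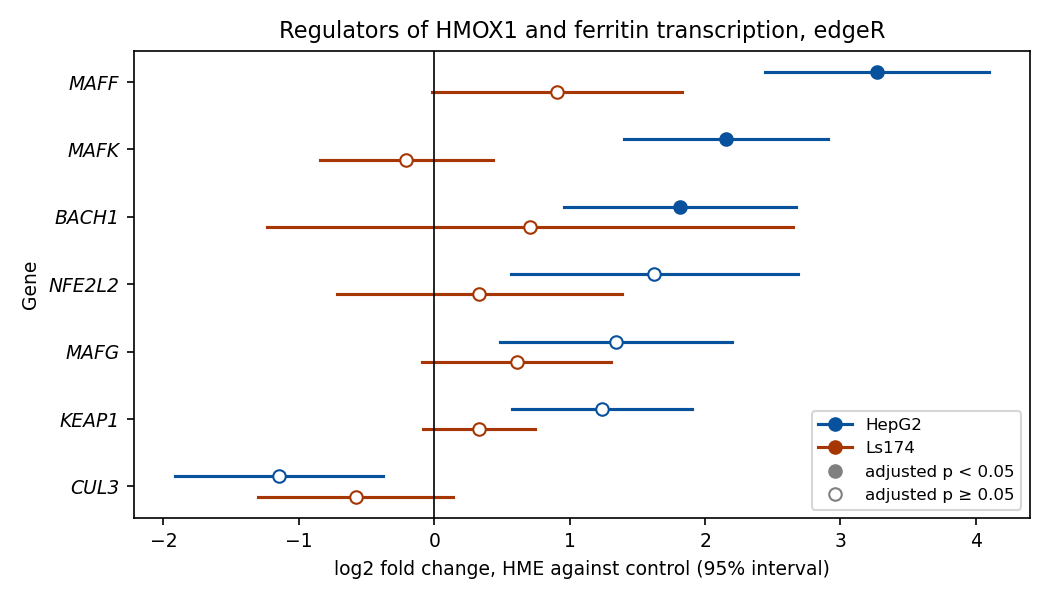
Log2 fold change of HME against control for 7 regulators of HMOX1 and ferritin transcription in HepG2 (blue) and Ls174 (brown), with 95% intervals from edgeR; filled points passed an adjusted p under 0.05. MAFF (3.27), MAFK (2.16) and BACH1 (1.81) are filled in HepG2 and no gene is filled in Ls174.

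Of the uptake list, 6 genes were tested in Ls174 and all 6 had negative log2 fold changes, with a median of -1.06, while 5673 of all 11319 tested genes were negative, and TFRC alone passed the adjusted threshold. At the study's thresholds 4 of the 6 were lower, against 7.85% of all tested genes. Besides TFRC, these were SLC39A14 (-1.39, adjusted p = 0.0830), SLC11A2 and SLC39A8 (-1.29, adjusted p = 0.226, edgeR), the SLC39 genes being metal importers named after their values were seen. In HepG2, 0 of 8 uptake genes passed either threshold, and the median was -0.15. TFR2, the liver's sensor of transferrin, was at 25.7 CPM in control and 25.5 CPM in HME-treated HepG2 cells. Other lists were one-sided too. In HepG2, 10 of 12 heme transport genes and 5 of 6 iron sensing genes had negative log2 fold changes (medians -0.54 and -0.71). All 6 storage genes tested there had positive ones (median 0.54). Nothing is read from these directions.

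HEPH, hephaestin, an oxidase that works with ferroportin, was the only gene of the export list tested in Ls174. HEPH was named after its values were seen. It stood at 41.1, 20.1 and 14.3 CPM in the controls and at 7.61, 11.3 and 13.1 CPM with HME, without overlap, and its log2 fold change of -1.22 ± 0.44 (SE) passed the study's thresholds and not the adjusted one (adjusted p = 0.292, edgeR). It had no count in HepG2.

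In the other lists no gene besides the members named above passed, and the gene with the lowest p of each gives its measure. ACVR1, a receptor of the BMP signal that drives hepcidin, had a log2 fold change of 1.43 in HepG2 (adjusted p = 0.0592, edgeR), and BMPR2, its partner, -1.60 in HepG2 and -1.62 in Ls174 (adjusted p = 0.0711 and 0.210, edgeR). The heme exporter FLVCR1 was at -1.64 in Ls174 (adjusted p = 0.0601, edgeR), and LRP1, which clears heme bound to hemopexin, at -1.42 in HepG2 (adjusted p = 0.0711, edgeR). ALAS1, the rate-limiting enzyme of heme synthesis in liver, was at 1.17 in HepG2 and 1.68 in Ls174 (adjusted p = 0.121 and 0.271, edgeR), and CPOX, a later enzyme, at -0.96 in Ls174 (adjusted p = 0.248, edgeR). For iron-sulfur clusters, ISCA1 was at 1.20 in Ls174 and 0.89 in HepG2 (adjusted p = 0.0993 and 0.143, edgeR) and NUBPL at -0.87 in HepG2 (adjusted p = 0.121, edgeR). ACO1, which is iron regulatory protein 1, was at -0.89 in HepG2 (adjusted p = 0.176, edgeR) and HERC2 at -0.66 in Ls174 (adjusted p = 0.328, edgeR). HMOX2, the constitutive heme oxygenase, was at 0.01 in HepG2 and -0.32 in Ls174 (adjusted p = 0.986 and 0.630, edgeR), and BLVRA, the main biliverdin reductase, at -0.46 in HepG2 (adjusted p = 0.399, edgeR). ALAS1 was at 2.45 CPM in Ls174 control 1, against 31.2 and 28.3 CPM in controls 2 and 3. In HepG2 control 2, BMPR2 (47.0 CPM), LRP1 (60.6 CPM), ACO1 (76.0 CPM) and ISCA1 (55.0 CPM) had their highest control value. In Ls174 control 1, CPOX (97.3 CPM) had its highest control value and FLVCR1 (33.3 CPM) its lowest. Fold changes of these genes are not given without those libraries.

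The genes whose pattern lay closest to a called member were ranked by the mean absolute difference of log2(CPM + 1), centred on the controls of each line, over the 12 libraries and 9870 genes tested in both lines. For HMOX1 they were ABHD4, SHB, ARG2 and SRXN1, the latter sharing its reads with an overlapping gene, at distances of 0.32 to 0.35. For FTL they were MARS, RBCK1, NOS3, SESN2 and GAS5, at 0.18 to 0.23. For TFRC they included ATP11A, ACSL3, UTRN and ROBO1, at 0.19 to 0.24, of which ATP11A, ACSL3 and ROBO1 were also lower in Ls174 at an adjusted p under 0.05 (edgeR), with UTRN at 0.234. This ranking uses the values of the comparisons themselves and is a description only.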

How the data were processed

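RNA of HepG2 and Ls174 cells was measured in 12 libraries, 3 in each of 4 groups. Per the study's methods, the authors prepared 3′ libraries (QuantSeq) for an Ion Proton, checked reads with FASTQC, aligned them to hg19 (GRCh37) with HISAT2 at default settings and passed the alignments to metaseqR2. The submitters' processing notes also name Bowtie2 and Trimmomatic. The handling of reads with several alignments and of strand is not given in the sources used here. The deposited files hold whole-number read counts for 144910 3′ regions, not normalized. A read marks the end of a transcript, so a count does not grow with transcript length.

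Counts were summed over the regions of each gene, and genes were tested with edgeR 4.0.16 in R 4.3.3 (TMM, filterByExpr by group, quasi-likelihood F test, two-sided, Benjamini-Hochberg adjustment over all tested genes): HME against control within each line on 6 libraries, the control groups on 6, and the interaction on 12, without covariates. The SE was derived from the F statistic. CPM are TMM-normalised over the 12 libraries. The study's binomial test has no term for the spread between replicates and was run as an alternative only, besides DESeq2 1.42.0, other scalings and filters, a replicate block, the leading region of a gene, regions of 1 gene only, pseudogenes summed, and each library left out. Replicates were compared by the chi-square of their counts per degree of freedom, 4.44 to 54.1, so none was a duplicate. The labels do not say that the replicates of a number share a culture or day, so p-values measure the spread between these libraries. The tests were checked for direction on simulated counts, with the same dispersion for all genes and no library that lay apart. That check does not measure error rates in these libraries.

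Iron-responsive elements were searched in GENCODE UTRs on GRCh37. The members and the lists were chosen with earlier results of these data known. All 10 members are described. From the wider lists, genes past an adjusted p under 0.05 are named. For a list with no such gene in either line, the gene with the lowest p in each line is named. Paralogs and known regulators of members are also given. KEAP1, MAFG and CUL3, which the regulator list held, and HEPH, SLC39A14 and SLC39A8 were named after their values were seen. Marker lists (hepatocyte, colon epithelium, mesenchymal, blood, endothelial) check the lines. Tables were made with pandas 2.3.3 and numpy 2.4.6 in Python 3.11.15, and figures with matplotlib 3.10.9. Proteins were not analysed here, and 1 gene of the ranking by pattern is not reported here.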

Additional observations from a re-analysis of the deposited data

Results flagged for a closer look

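The effect of HME on TFRC, the transferrin receptor, differed between the lines by 2.22 on the log2 scale (HepG2 minus Ls174; adjusted p = 0.0311, edgeR), with every HepG2 HME library above its controls and every Ls174 HME library below its controls. The call for TFRC was lost in 10 of 22 alternatives, with the direction kept in all of them. The effect on MAFK, a small MAF protein that pairs with NRF2 and BACH1, differed by 2.35 (adjusted p = 0.0174, edgeR), with mean levels of 24.7 and 110 CPM in HepG2 control and HME cells and of 22.6 and 19.6 CPM in Ls174. Values of MAFK under the alternatives are not given.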

How the results depend on the processing

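HMOX1 in HepG2 kept its direction and its call in all 17 alternatives, with log2 fold changes from 2.83 to 3.41. Of 609 values of single members under alternatives, 531 kept direction and side of the threshold, 36 lost and 18 gained a call, and 24 changed sign; no called value was among the last. The number of members called in HepG2 (2) was 9 with the binomial test on summed counts and 1 to 2 with a library left out. In Ls174 (2) it was 1 with library size only, with 1 fit of all 12 libraries and with pseudogenes summed, 6 with the binomial test, and 0 to 3 with a library left out. The interaction (1) gave 0 with library size only and 0 to 1 with a library left out. Between the controls (5) it was 8 without a filter and 5 to 7 with a library left out. Of the wider lists, 5 genes were called in HepG2 and 2 in Ls174, against 13 and 7 with DESeq2, 13 and 8 without a filter, 70 and 56 with the binomial test, 8 and 1 with 1 fit of all libraries, 6 and 1 with library size only, 5 and 1 with pseudogenes summed, 5 and 0 with the replicate number as a block, and 2 to 11 and 0 to 11 with a library left out. Deviations of same-numbered libraries correlated at -0.168 to 0.0884 in HepG2 and -0.0546 to -0.00969 in Ls174. Differently numbered HepG2 libraries ranged from -0.201 (control 3 with HME 2) to 0.310 (control 3 with HME 1). With 3 libraries per group, these values cannot decide whether libraries of a number shared a culture or day. With the replicate number as a block, 2 members were called in HepG2, 0 in Ls174, 0 in the interaction and 3 between the controls, where TFRC in Ls174 had an adjusted p of 0.142 and FTL 0.181 (edgeR). Scaling by library size only moved the median of all genes in HepG2 from -0.04 to -0.20. The sign changes were in BLVRB, SLC11A2, HAMP, FTH1, NCOA4 and TF, and they were in small values except for HAMP and TF. BLVRB in HepG2 was -0.10 with library size only, -0.0113 with upper quartile and -0.13 with the binomial test, and -0.00595 to 0.158 with a library left out. SLC11A2 between the controls was -0.18, -0.0685 and -0.14 in the same order, -0.0698 without the 2 controls that lay apart and -0.11 to 0.26 with a library left out. With a library left out, SLC11A2 in HepG2 ranged from -0.44 to 0.0638 and HAMP from -1.73 to 0.34, and in the interaction FTH1 from -0.32 to 0.0619, NCOA4 from -0.24 to 0.67, BLVRB from -0.39 to 0.0276 and TF from -6.40 to 5.89 (0.32 without the 2 controls that lay apart), since TF rests on 2 Ls174 libraries. Where no value is given for it above, the cause of a change was not tested. With 3 libraries per group and few counts, the SE was 1.54 for TF in the interaction, 0.83 for HAMP in HepG2 and 0.61 for HMOX1 in Ls174 (log2). Leaving out regions listed under several genes moved no 3′ end share, since no member shares a region.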
